A study of Homo sapiens with 12 samples.

Results

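The genes described here are those of the DEAD and DEAH box RNA helicases, named by the symbols DDX and DHX with a number. A symbol of this form belonged to 42 of the 11963 genes with a named probe set. DHX9-AS1, an antisense RNA gene, meets only the letters of the rule and was set aside, which left 41 members. Each was represented by the probe set with the highest mean, and 34 were bright enough to be tested among 7178 genes. Members were split by a list of 16 helicases known from the nucleolus, of which 11 had a named probe set and all 11 were tested, and the other 30 members, of which 23 were tested. DDX18, DDX47, DDX55, DHX33 and DHX37 of the nucleolar list, as well as DDX5 and DDX39B, were not analysed here because no probe set names them alone.

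Signals came from 12 arrays of 5 established human melanoma lines, all with the BRAFV600E genotype: Malme3M, SkMel-1, SkMel-19, SkMel-28 and SkMel-5. Cells received 0.1% DMSO, the solvent, or 250 nM of the RAF inhibitor PLX4032 (vemurafenib) for 8 h, and a dose of 1000 nM was added for Malme3M and SkMel-19. With a single array for each line at a dose, lines serve as replicates (n = 5 at 250 nM, n = 2 at 1000 nM). Each p-value weighs the mean change within lines against limma's moderated standard error (SE). Every SE given with a log2 fold change is of this kind. It draws a gene's own spread from line to line towards that of genes of similar level. The fit over 2 lines used a single estimate of the spread for DMSO and both doses. Array medians of the signal ran from 102.5 to 130.4. MLANA, TYR, SOX10 and MITF, markers of the melanocyte lineage, were above the filter level of 85.7 on all 12 arrays, and TYRP1 on 10 of them. All 4 blood markers with a probe set were below it on every array, as were KRT5, KRT14 and EPCAM of the epithelial list, whereas CDH1 reached 5034. The fibroblast genes LUM, which reached 1720, and COL1A1 (144.5 to 236.8) were above it on all 12 arrays. The summed signal of 5 fibroblast markers was 591 to 1732 with DMSO and 579 to 2052 at 250 nM, that of 4 epithelial markers 48.3 to 4566 and 112 to 4848. Only 2 of these fibroblast markers and 1 of these epithelial markers were bright enough to be tested, and none of them passed. Of 7 melanocyte markers 1 passed, where 28.3% of all genes tested did, and their sum was 31538 to 61474 and 41528 to 65657. At 250 nM the ERK target DUSP6 was lower in 5 of 5 lines, at a log2 fold change of -5.04 (SE 0.57, limma adjusted p = 0.000679), as were SPRY2 (-3.92, SE 0.32) and CCND1 (-3.09, SE 0.30), and MYC, a transcription factor known to drive ribosome production, was at -2.37 (SE 0.30, limma adjusted p = 0.000968), also lower in 5 of 5.

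DEAD and DEAH box proteins use ATP to unwind short RNA duplexes or to strip proteins from RNA, and are named after the amino acids of a conserved motif. Ribosome assembly in the nucleolus needs many of them, where they release small nucleolar RNAs from the precursor of ribosomal RNA and let it fold. Others drive the rearrangements of the spliceosome, carry messenger RNA out of the nucleus, help ribosomes start on structured messages or sense viral RNA.

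At 250 nM the largest changes among the helicases were those of nucleolar members, and most other members changed little. The median log2 fold change of all 34 was -0.11 and 23 of them were below 0, against a median of 0.03 and 3180 of 7178 for all genes tested. Of these 34 members tested, 7 fell and 1 rose at a limma adjusted p (Benjamini-Hochberg over all genes tested, cell line as a block) under 0.05. That is 23.5% of the members, against 28.3% of all genes tested, so the share called was no higher than the background. By direction, 20.6% of the members fell against 13.1% of all genes, and DHX40 was the only member that rose, against 15.2% of all genes. Of the 11 nucleolar members 4 fell (36.4%): DDX21, DDX31, DDX56 and DDX10. Of the 23 others 3 fell (13.0%): DHX15, DHX30 and DDX3X. The median log2 fold change was -0.25 for the nucleolar members, -0.05 for the others and 0.03 for all genes tested. The contrast between the lists is a description without a test, since the lists were drawn up with earlier results of these data known. The arrays had nearly equal trimmed mean signals, as after scaling to a common level, so a fall is a fall relative to other transcripts, and in bulk RNA fewer expressing cells and less RNA per cell cannot be told apart.

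**Figure D1:**
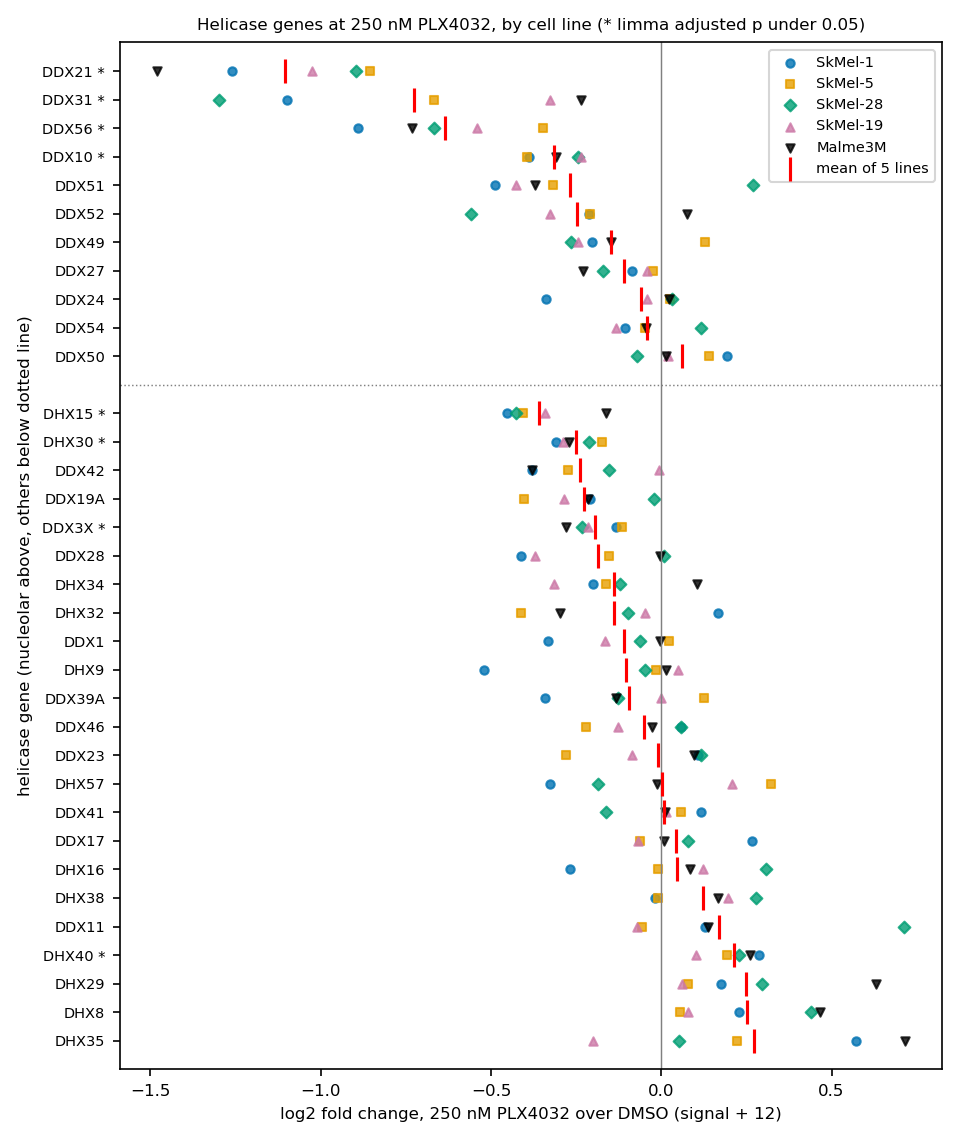
Log2 fold change at 250 nM PLX4032 over DMSO, on signal + 12, for the 34 helicase genes tested (rows, nucleolar members above the dotted line), with a symbol for each of the 5 lines and a red bar at their mean. DDX21 stands lowest with all 5 lines between -0.85 and -1.48, while most other members lie near 0.

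DDX21, a nucleolar helicase that binds ribosomal RNA and ribosomal DNA and promotes transcription by RNA polymerase I and processing of its product, had the largest change of any member. Its signal with DMSO was 2711 in SkMel-1, 2338 in SkMel-5, 2242 in SkMel-28, 4443 in SkMel-19 and 2414.5 in Malme3M. At 250 nM it was 1124, 1288, 1198.5, 2178 and 857 in the same order. Every treated signal lay below every DMSO signal, and DDX21 was the only member of the 34 whose groups did not overlap, as holds for 1.31% of all genes tested in the downward direction and 0.543% in the upward. The fall was 2.15-fold (-1.10 ± 0.10 on the log2 scale, mean and moderated SE, n = 5 lines, limma adjusted p = 0.000277). It was deepest in Malme3M (-1.48) and shallowest in SkMel-5 (-0.85).

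DDX56, which takes part in assembly of the large ribosomal subunit, fell 1.55-fold (-0.64 ± 0.09 on the log2 scale, mean and moderated SE, n = 5 lines, limma adjusted p = 0.00202). Its DMSO signals were 928 in SkMel-1, 1126 in SkMel-5, 1011 in SkMel-28, 719 in SkMel-19 and 854 in Malme3M. At 250 nM they were 495, 882, 632, 490.4 and 509. All 5 lines were lower, from -0.35 in SkMel-5 to -0.89 in SkMel-1, but the groups overlapped because SkMel-5 at 250 nM stayed above the DMSO signals of SkMel-19 and Malme3M.

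DDX31, another factor of the large subunit, was dim. Its signals with DMSO were 82.3 in SkMel-1, 327 in SkMel-5, 124 in SkMel-28, 225.5 in SkMel-19 and 137 in Malme3M. At 250 nM they were 32.0, 201.5, 43.3, 177 and 115. Each line was lower, but by very unequal amounts, from -1.30 in SkMel-28 to -0.24 in Malme3M (mean -0.73, SE 0.18, n = 5 lines, limma adjusted p = 0.0160). On 3 arrays the signal lay under 85.7, and with signals raised to that level the mean was -0.34 and the call was lost (limma adjusted p = 0.0594).

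DDX10, which releases a small nucleolar RNA from precursors of the small subunit, changed little but evenly. Its DMSO signals were 981 in SkMel-1, 561 in SkMel-5, 569.7 in SkMel-28, 686 in SkMel-19 and 489.9 in Malme3M, and those at 250 nM were 746, 424, 479, 581 and 393. Differences between lines were larger than the drop within any line, so the groups overlapped. The fall was 1.24-fold (-0.31 ± 0.08 on the log2 scale, mean and moderated SE, n = 5 lines, limma adjusted p = 0.0177). It lay between -0.24 and -0.39 in the single lines, and without SkMel-1 it just missed the threshold (limma adjusted p = 0.0541).

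The other 7 nucleolar members did not pass. DDX51, which acts in maturation of 28S ribosomal RNA, stood at -0.27 (SE 0.14, limma adjusted p = 0.181) and was lower in 4 of 5 lines. It went from 173 to 120 in SkMel-1, from 147 to 115.5 in SkMel-5, from 161 to 117 in SkMel-19 and from 145 to 109 in Malme3M, but from 79.5 to 98.2 in SkMel-28. DDX52, a factor of the small subunit, stood at -0.25 (SE 0.11, limma adjusted p = 0.115), with signals going from 327 to 280.4 in SkMel-1, 296 to 254 in SkMel-5, 412 to 276 in SkMel-28, 526 to 417.5 in SkMel-19 and 261.5 to 276 in Malme3M. On this probe set Malme3M alone was higher, while the other probe sets gave -0.40 and -0.29, each lower in all 5 lines. When all 3 probe sets of DDX52 were averaged, it did pass (-0.31, limma adjusted p = 0.0299). DDX49, also of the small subunit, stood at -0.15 (SE 0.09, limma adjusted p = 0.233), going from 587 to 508 in SkMel-1, 1031.5 to 856 in SkMel-28, 1105.5 to 931 in SkMel-19 and 378 to 340.4 in Malme3M. In SkMel-5 it was higher, at 594 and 649.7. DDX27, which acts on the large subunit, was lower in all 5 lines but by little, from -0.02 in SkMel-5 to -0.23 in Malme3M (mean -0.11, SE 0.07, limma adjusted p = 0.258). DDX24 (-0.06, SE 0.08) and DDX54 (-0.04, SE 0.09), both of the large subunit, lay closer still to 0. DDX24 went from 623 to 490.0 in SkMel-1 (-0.34) and lay between -0.04 and 0.03 in the other 4 lines. A second, dimmer probe set of DDX24 gave -0.16 (SD 0.30) and was lower in 4 of 5 lines.

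DDX50, the close relative of DDX21 encoded beside it on chromosome 10, showed no such drop. Its DMSO signals were 705 in SkMel-1, 701 in SkMel-5, 583 in SkMel-28, 1324 in SkMel-19 and 809.6 in Malme3M, and at 250 nM 808, 773, 555, 1343 and 817. Only SkMel-28 was lower, and the change was 0.06 ± 0.08 on the log2 scale (limma adjusted p = 0.591). In each of the 5 lines the change of DDX50 lay between -0.07 and 0.19, and that of DDX21 at -0.85 or below.

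**Figure D2:**
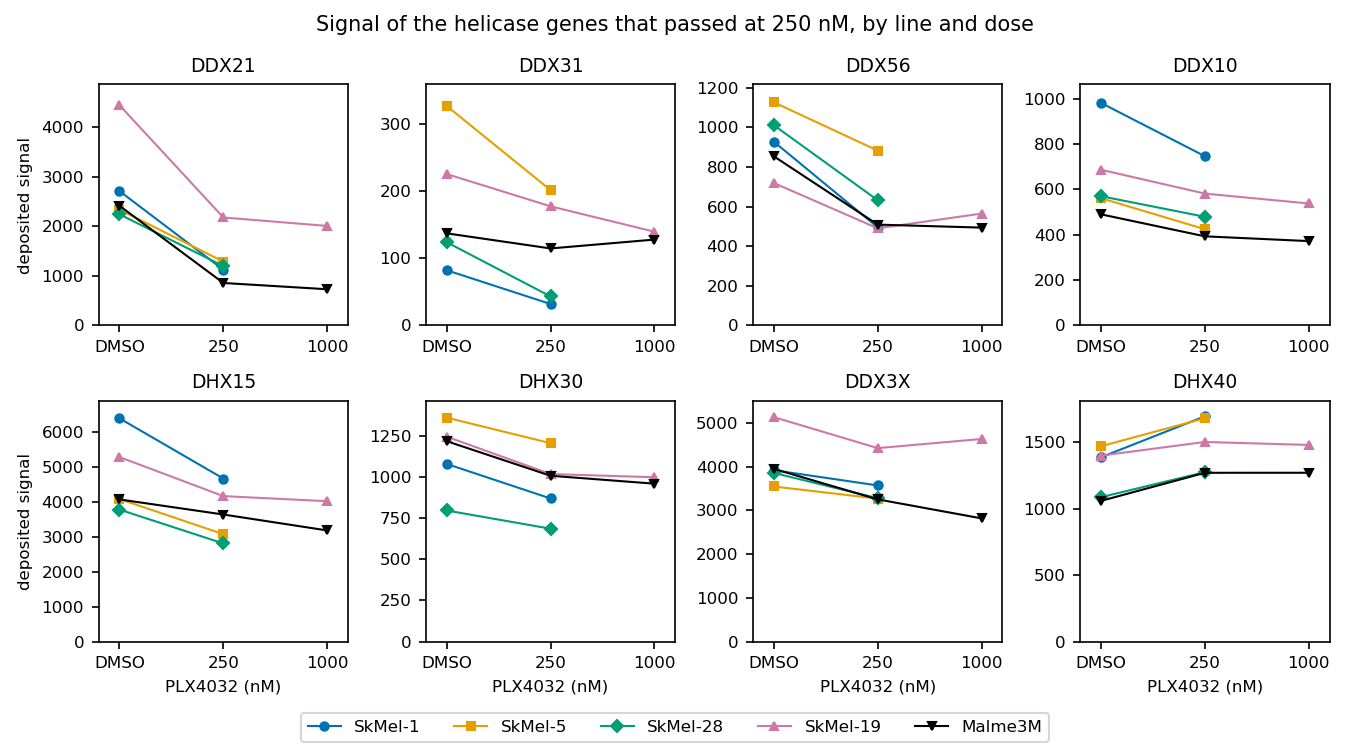
Deposited signal (vertical axes from 0) against PLX4032 dose for the 8 helicase genes that passed at 250 nM, with a line for each of the 5 cell lines and 1000 nM only for SkMel-19 and Malme3M. DDX21 drops from between 2242 and 4443 to between 857 and 2178, the largest drop of the 8, and its signals at 1000 nM stay near those at 250 nM.

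Sequence upstream of the start sites is shown for the 4 nucleolar members that fell and for DHX40, the member that rose, so that their motifs can be compared beside the changes given above. The lines that follow give the 150 bases before the annotated start of transcription (5′ to 3′ on the gene's strand, RefSeq, GRCh38.p14), for DDX31 before the most upstream of its 3 starts. For the other annotated start of DDX21 they give 30 bases around a match. Capitals mark CACGTG (the E-box bound by MYC and related factors), CCGGAAG or its reverse complement (an ETS motif) and TGACGTCA (a cyclic AMP response element).
DDX21, chr10:68956020-68956169 (+ strand): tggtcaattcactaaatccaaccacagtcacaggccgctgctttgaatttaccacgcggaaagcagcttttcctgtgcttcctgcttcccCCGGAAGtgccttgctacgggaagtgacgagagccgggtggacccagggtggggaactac
DDX21, before the other start, chr10:68956604-68956633 (+ strand): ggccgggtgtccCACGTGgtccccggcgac
DDX31, chr9:132669984-132670133 (- strand): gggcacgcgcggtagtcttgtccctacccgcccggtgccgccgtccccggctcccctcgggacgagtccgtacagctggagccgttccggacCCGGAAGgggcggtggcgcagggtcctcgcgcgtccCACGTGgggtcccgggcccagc
DDX56, chr7:44573909-44574058 (- strand): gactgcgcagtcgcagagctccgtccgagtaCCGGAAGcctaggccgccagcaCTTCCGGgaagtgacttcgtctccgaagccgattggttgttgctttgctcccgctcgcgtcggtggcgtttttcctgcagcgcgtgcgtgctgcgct
DDX10, chr11:108664919-108665068 (+ strand): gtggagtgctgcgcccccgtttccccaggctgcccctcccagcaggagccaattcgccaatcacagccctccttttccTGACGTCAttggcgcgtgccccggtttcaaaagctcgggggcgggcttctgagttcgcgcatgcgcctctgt
DHX40, chr17:59565460-59565609 (+ strand): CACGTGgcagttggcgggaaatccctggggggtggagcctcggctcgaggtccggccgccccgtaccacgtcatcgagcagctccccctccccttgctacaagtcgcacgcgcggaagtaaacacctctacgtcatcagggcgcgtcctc

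DDX31 held both an E-box, at position -22 from its start, and an ETS motif, and DDX21 had an ETS motif before the start given first and an E-box at -31 from the other. Of the motifs marked in capitals DDX56 had that of ETS only, in 3 places of which 2 lie in the stretch printed. DDX10 had neither an E-box nor an ETS motif, but held the cyclic AMP response element at -72, which is printed, and at -239. DHX40 had an E-box at the first base printed. Of the 3 other members that fell, which are not printed, DHX15 and DDX3X held none of these 3 motifs in their windows and DHX30 held an ETS motif at -238. In windows from 250 bases before to 50 after the start, an E-box was found for 8 of the 37 members with a window, and in 7.26% of 35116 windows of all genes (8.34% of those of protein-coding genes), against 17.0% of the 47 windows of members. The tested members with an E-box did not share a direction: besides DDX21 and DDX31 they were DDX54 (-0.04), DHX32 (-0.14), DHX34 (-0.14), DHX35 (0.27) and DHX40 (0.21). The ETS motif was in the windows of 16 members, or 34.0% of their windows against 12.8% of those of protein-coding genes and 10.3% of all. Of those 16, DDX21, DDX31, DDX56 and DHX30 fell and 12 did not pass. The response element was in 8.51% of the members' windows and 1.85% of all, and was found for DDX10, DDX19A, DDX28 and DDX51. The CCAAT box (CCAAT) was in 44.7% of the members' windows and 34.6% of all, the motif of NRF1 in 4.26% and 1.24%, and those of YY1 and ZNF143 in none of the members' windows (1.20% and 0.231% of all). All 7 motifs were searched on both strands, and none contains another. These are matches of letters, and binding was not measured.

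Among helicases of the spliceosome 1 of 9 fell and none rose in limma (3 had an unadjusted p under 0.05), with a median log2 fold change of 0.01. That is 11.1% that fell, against 13.1% of all genes tested. The member that fell was DHX15, which takes spent spliceosomes apart and is also needed for ribosome assembly. Its DMSO signals were 6381 in SkMel-1, 4074 in SkMel-5, 3772 in SkMel-28, 5274 in SkMel-19 and 4063 in Malme3M, and those at 250 nM 4659.5, 3069.8, 2805, 4157 and 3632. Each line was lower, most evenly in the SkMel lines (-0.34 to -0.45) and least in Malme3M (-0.16). DHX15 fell 1.28-fold (-0.36 ± 0.06 on the log2 scale, mean and moderated SE, n = 5 lines, limma adjusted p = 0.00309). Its other probe set gave -0.34 (SD 0.11).

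The remaining helicases of the spliceosome lay on either side of 0. DDX42, linked to the U2 particle, was lower in all 5 lines, from 855 to 654 in SkMel-1, 906 to 747 in SkMel-5, 734 to 658 in SkMel-28, 744 to 741.5 in SkMel-19 and 1253 to 960.3 in Malme3M, but did not pass (-0.24, SE 0.08, limma adjusted p = 0.0628). With arrays centred on their median it did (-0.27, limma adjusted p = 0.0403). DDX46, which acts at the branch site (-0.05), DDX23 of the U5 particle (-0.01), DDX41 (0.01) and DHX16, which activates the spliceosome (0.05), lay close to 0 and did not pass. DHX38, which acts between the steps of splicing (0.12), DHX8, which releases the spliced message (0.25, SE 0.10, limma adjusted p = 0.0896), and DHX35 (0.27, SE 0.14, limma adjusted p = 0.180) lay above it, and none of them passed. DHX8 was higher in all 5 lines and DHX35 in 4, with SkMel-19 at -0.20.

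Of the helicases that act on messenger RNA in export, translation and decay, 5 were tested and 1 fell, where 13.1% of all genes did. DDX3X, which helps ribosomes start on structured messages, had DMSO signals of 3919 in SkMel-1, 3546.5 in SkMel-5, 3857 in SkMel-28, 5133 in SkMel-19 and 3950.3 in Malme3M, and 3571, 3269.6, 3279, 4424 and 3252 at 250 nM. All lines were lower, between -0.12 and -0.28 (mean -0.20, SE 0.05, 1.15-fold, n = 5 lines, limma adjusted p = 0.0230). The step was small against the spread of signal levels between lines, so the groups overlapped. The call was lost without SkMel-28, SkMel-19 or Malme3M (limma adjusted p = 0.0675, 0.0699 and 0.0825). Its 3 other probe sets above the filter gave -0.30, -0.32 and -0.38. With all its probe sets averaged the call was lost (-0.24, limma adjusted p = 0.0550). That average took in a probe set far below the filter (mean signal 4.09, log2 fold change -0.02, SD 0.51). The call was also lost with no trend of variance on level (limma adjusted p = 0.0708).

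DDX19A, which works at the nuclear pore, was lower in all 5 lines, from 581.5 to 501 in SkMel-1, 492.5 to 369 in SkMel-5, 359 to 354 in SkMel-28, 764 to 625 in SkMel-19 and 499 to 428 in Malme3M, and did not pass (-0.23, SE 0.09, limma adjusted p = 0.0801). At 1000 nM its signal was 600.1 in SkMel-19 and 434.2 in Malme3M. At 250 nM its other probe set lay on the opposite side of 0 (0.08, SD 0.30). DHX29, which assists scanning ribosomes, was higher in all 5 lines (0.25, SE 0.10, limma adjusted p = 0.0933), most in Malme3M, from 538 to 839. DHX34, of nonsense-mediated decay (-0.14), and DDX39A, of messenger RNA export (-0.10), did not pass. A dimmer probe set of DHX34, just below the filter (mean signal 79.5), gave -0.90 (SD 0.49) and was lower in all 5 lines. Another, at a mean signal of 17.7, gave -0.29 (SD 0.75).

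DHX30, which supports mitochondrial ribosomes, fell evenly. Its signals went from 1078.5 to 869 in SkMel-1, 1359.5 to 1204 in SkMel-5, 796 to 685 in SkMel-28, 1244 to 1017 in SkMel-19 and 1217 to 1007 in Malme3M (-0.25, SE 0.07, 1.19-fold, n = 5 lines, limma adjusted p = 0.0269). The other probe set gave -0.27 (SD 0.16). The call was lost when any line but SkMel-5 was left out (limma adjusted p from 0.0597 to 0.0794). DDX28, also of mitochondria, stood at -0.19 (SE 0.11, limma adjusted p = 0.227), lower in 4 of 5 lines. Its other probe set above the filter gave -0.24 (SD 0.14) and was lower in all 5 lines.

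DHX40, a DEAH box protein outside the lists of roles, was the member that rose. Its signals went from 1388 to 1696 in SkMel-1, 1471 to 1682 in SkMel-5, 1087 to 1276 in SkMel-28, 1400.3 to 1503 in SkMel-19 and 1059 to 1271 in Malme3M. All 5 lines were higher by a small step (0.21, SE 0.07, 1.16-fold, limma adjusted p = 0.0413), and the call was lost when any 1 line was left out (limma adjusted p from 0.0648 to 0.109) with arrays centred on the median and with no trend of variance on level (limma adjusted p = 0.0729 and 0.0553). At 1000 nM its signal was 1480.5 in SkMel-19 and 1271 in Malme3M. The multifunctional DDX1 (-0.11), DHX9 (-0.10) and DDX17 (0.04), which act in transcription and in RNA-protein complexes, the DNA helicase DDX11 (0.17), DHX32 (-0.14) and DHX57 (0.00) did not pass. The other probe sets of DDX11 disagreed in sign, at 0.16 (SD 0.36) and at -0.09 (SD 0.08), the latter lower in all 5 lines. Of the 34 members 10 were lower in all 5 lines and 3 higher in all 5, which is the case for 16.6% and 20.9% of all genes tested.

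Most helicases had only modest changes, whereas other genes of ribosome assembly moved further. As background, 13.1% of all genes tested fell and 15.2% rose. Of 61 tested ribosome assembly genes that are not helicases, 47 fell and 0 rose in limma, 50 had an unadjusted p under 0.05, and 60 were below 0, with a median of -0.53. The largest falls were those of BRIX1 (-1.45, SE 0.11), of BYSL (-1.34, SE 0.14) and of RRS1 (-1.28, SE 0.15), all assembly factors. RNA polymerase I genes fell in 5 of 11 cases, with a median of -0.33, led by POLR1G (-1.53, SE 0.18), POLR1C (-0.84, SE 0.09) and TAF1D (-0.74, SE 0.12). Of 39 spliceosome genes that are not helicases 12 fell and 1 rose (30.8% fell, median -0.09), with SNRPD1 at -0.60 (SE 0.08), U2AF1 at -0.60 (SE 0.16) and SNRPA1 at -0.58 (SE 0.09). Of 34 translation initiation factors 12 fell (35.3%, median -0.11), the cap-binding protein gene EIF4E at -0.57 (SE 0.07), EIF3J at -0.55 (SE 0.09) and EIF2S1 at -0.48 (SE 0.08) among them. Of 10 RNA helicases with other symbols HELZ rose (0.50, SE 0.09) and was the only one with an unadjusted p under 0.05 in limma. None fell, and the median was -0.03. Of 14 interferon response genes USP18 fell (-0.46, SE 0.12), and IRF9 (0.74, SE 0.08) and IRF7 (0.45, SE 0.11) rose.

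The medians were also taken within each line. The median of the nucleolar helicases was -0.34 in SkMel-1, -0.21 in SkMel-5, -0.24 in SkMel-28, -0.24 in SkMel-19 and -0.23 in Malme3M. That of the other helicases was -0.13, -0.06, -0.02, -0.07 and 0.01, so the nucleolar median was lower by 0.15 to 0.24 in every line. Ribosome assembly genes that are not helicases had medians between -0.40 in SkMel-5 and -0.67 in SkMel-1, below the nucleolar helicases in every line. Other lists changed places between lines: the RNA polymerase I median lay below that of ribosome assembly in SkMel-5 (-0.54 against -0.40), and above it in SkMel-1 (-0.37 against -0.67).

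**Figure D3:**
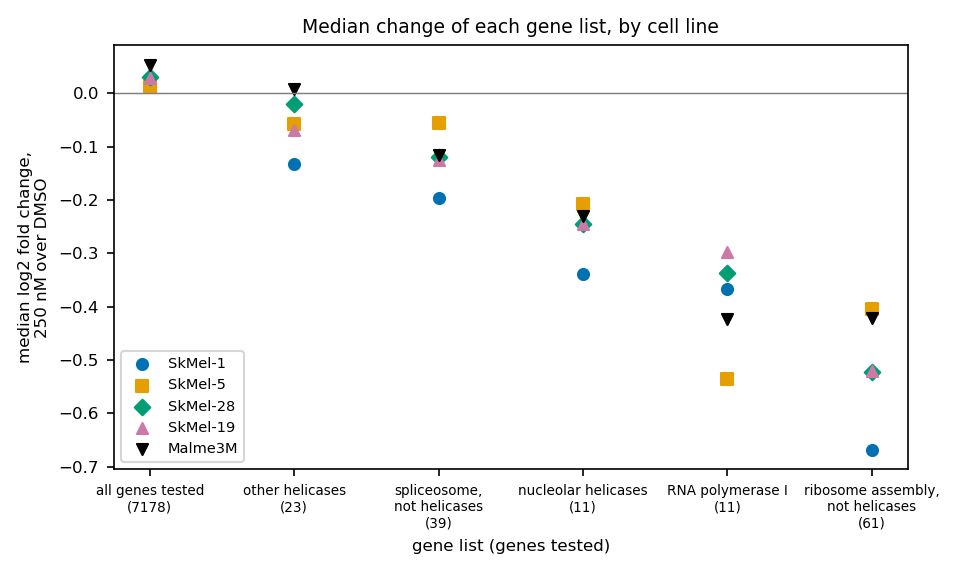
Median log2 fold change at 250 nM over DMSO for 6 gene lists (horizontal axis, genes tested in brackets), with a symbol for each of the 5 lines. Nucleolar helicases lie between -0.21 and -0.34, in each line below the other helicases and above the ribosome assembly genes that are not helicases, while RNA polymerase I genes vary in place.

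The 1000 nM dose was measured in SkMel-19 and Malme3M, and was set beside 250 nM in the same 2 lines. Against DMSO, 2 of the 34 members fell and none rose in limma at 1000 nM (8 had an unadjusted p under 0.05), 5.88% against 11.2% of all genes in either direction and 5.89% for falls alone (5.29% for rises). They were DDX21 and DHX15. At 250 nM in these lines 2 fell, DDX21 and DDX56, against 11.3% of all genes, 5.36% for falls and 5.98% for rises. Of all genes called there 52.7% were higher, or 40.4% with arrays centred on the median. Both doses share their DMSO arrays. DDX21 went from 4443 with DMSO to 2178 and 2008 in SkMel-19, and from 2414.5 to 857 and 731 in Malme3M, which is a log2 fold change of -1.25 at 250 nM (SE 0.15, n = 2 lines, limma adjusted p = 0.00961) and -1.42 at 1000 nM (SE 0.15, n = 2 lines, limma adjusted p = 0.00667). With low signals raised to the filter level its call at 250 nM was just lost in these lines (limma adjusted p = 0.0508), and that at 1000 nM was kept (limma adjusted p = 0.0471). DHX15 went from 5274 to 4157 and 4012 in SkMel-19 and from 4063 to 3632 and 3176 in Malme3M (-0.25, SE 0.08, limma adjusted p = 0.0841, and -0.37, SE 0.08, limma adjusted p = 0.0350). Its call at 1000 nM was lost with no filter, with low signals raised and with no trend (limma adjusted p = 0.0663, 0.0740 and 0.0936). DDX56 went from 719 to 490.4 and 564.7 in SkMel-19 and from 854 to 509 and 494 in Malme3M (-0.64, SE 0.14, limma adjusted p = 0.0423, and -0.56, SE 0.14, limma adjusted p = 0.0561). Its call at 250 nM in these lines was lost under the same 3 settings (limma adjusted p = 0.0717, 0.0944 and 0.0601). With the cell line left out of the fit no member passed at either dose. DDX10 (-0.37), DHX30 (-0.33) and DDX3X (-0.32) did not pass at 1000 nM in 2 lines. At this dose DDX10 was at 537.6 in SkMel-19 and 372 in Malme3M, DHX30 at 998 and 958.5, and DDX3X at 4633 and 2817. DDX31 was at 139.6 and 128, DDX51 at 133 and 113, DDX52 at 465 and 254, DDX49 at 968 and 339, and DDX42 at 708 and 1026, in the same order. All of these 8 were below their DMSO signals in both lines. The nucleolar median was -0.29 at 1000 nM and -0.20 at 250 nM in these lines, and that of the other members -0.11 and -0.03. Of the 34 members 22 were lower at 1000 nM in both lines, 9 of them nucleolar, against 31.8% of all genes.

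Between the doses 0 of the 34 members passed, as did 0% of all genes tested (limma), and 0 members had an unadjusted p under 0.05, against 75 genes in all. The difference of 1000 nM from 250 nM was -0.17 for DDX21 (SE 0.15), 0.08 for DDX56 (SE 0.14) and -0.12 for DHX15 (SE 0.08). DDX54 showed the largest gap among nucleolar members (-0.27, SE 0.13, not passed), with signals of 393, 357 and 281 in SkMel-19 and 317, 307 and 264 in Malme3M at DMSO, 250 nM and 1000 nM. With 2 lines these errors leave room for a step of the size seen for DDX54, and the test does not show that the doses act alike. Members were lower at 1000 nM than at 250 nM in both lines in 10 cases of 34, against 27.8% of all genes.

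**Figure D4:**
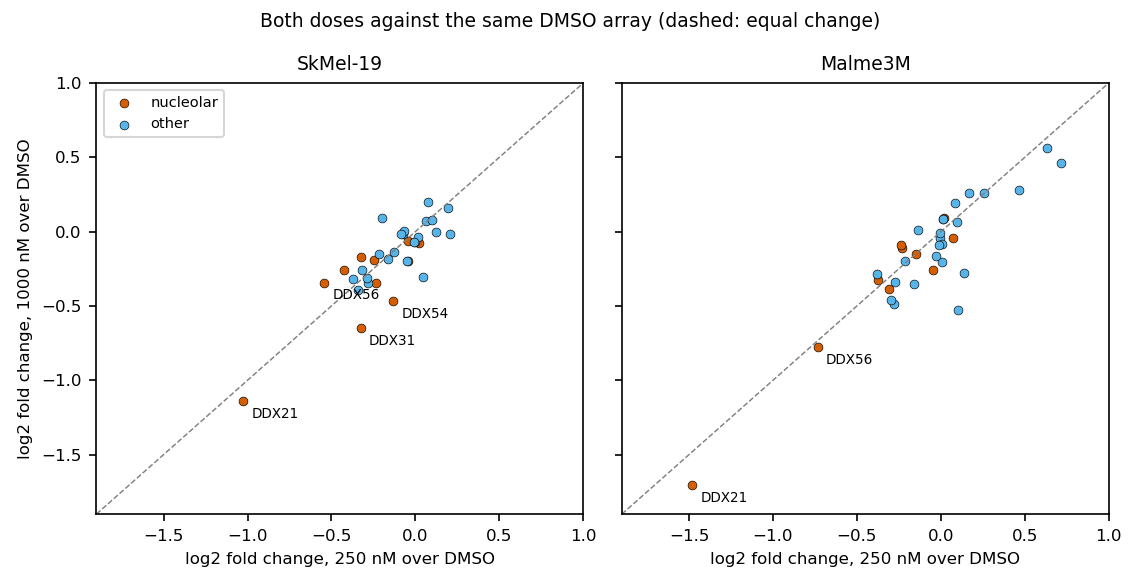
Log2 fold change at 1000 nM over DMSO (vertical) against that at 250 nM over the same DMSO array (horizontal) for the 34 helicase genes in SkMel-19 and Malme3M, nucleolar members in orange, with the dashed line marking equal change. DDX21 lies far from the rest in both lines, at -1.14 and -1.71 for 1000 nM, and the shared DMSO array by itself draws points towards the dashed line.

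Without drug, the lines differed in their helicase signals. For every tested member except DDX21, the highest DMSO signal over the lowest was larger than the mean fold change at 250 nM. For DDX56 they were nearly equal (1.57 and 1.55), and the fold change was taken on signal + 12, so its order is not secure. The highest DMSO signal over the lowest ranged from 1.39 for DHX40 to 8.71 for DHX57, whose low value of 32.6 in SkMel-5 lay under the filter level. DDX31 ran from 82.3 in SkMel-1 through 124, 137 and 225.5 to 327 in SkMel-5, a 3.97-fold range. DDX24 was at 623 in SkMel-1 and between 1660.1 and 2356 in the other 4 lines, and DDX27 between 716 in Malme3M and 2593 in SkMel-28. DDX21 was highest in SkMel-19 (4443), and its other 4 lines, between 2242 and 2711, were close together. With 1 array a line, the order of neighbouring lines cannot be tested.

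**Figure D5:**
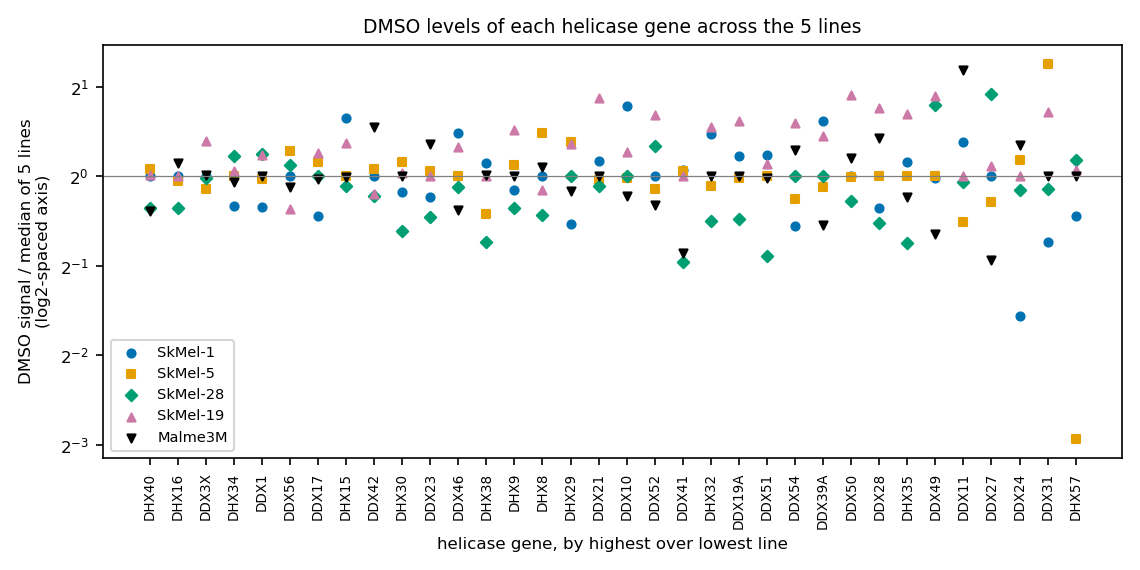
DMSO signal of each of the 34 helicase genes in the 5 lines, divided by that gene's median over the lines (vertical axis with log2 spacing), genes ordered by the highest over the lowest line. The range widens from 1.39-fold for DHX40 at left to 8.71-fold for DHX57 at right.

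The 7 members below the filter were not tested. DDX43, a helicase gene known from testis and tumours, was at 252.5 in SkMel-19 with DMSO, 318.5 at 250 nM and 307.5 at 1000 nM, while no array of the other 4 lines exceeded 12. DDX4, of germ cells, stayed between 0.6 and 1.9, and DDX25, of testis, between 7.8 and 83.1. DDX60 and DHX58 act in sensing of viral RNA. DDX60 (33.4 to 117) had a mean of 82.5, just below the filter level of 85.7, and lay under that level on only 3 arrays. DHX58 (4.6 to 62.7) lay under it on all 12. DDX6, of messenger RNA decay, read between 14.7 and 62.1 on its only named probe set. The 7th is DDX3Y, a Y-linked gene for which no values are given.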

How the data were processed

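Total RNA of 12 samples was hybridised to single-colour Affymetrix arrays. The deposited values are signal intensities, 1 per probe set, computed by the authors with GCOS per the submitters' processing notes (its version is not stated there). The arrays' trimmed means were nearly equal, as after scaling to a common level. Of 22277 probe sets, 19064 carried 1 gene symbol, and the probe set with the highest mean stood for each of 11963 genes. Signals were taken as log2(signal + 12), so a fold change of a low gene is understated. Genes with a mean of at least 6.611 on this scale, a signal of about 85.7 (7178 genes), were tested with limma 3.58.1 in R 4.3.3, with a trend on mean level, the cell line as a block and Benjamini-Hochberg adjustment. The fit had 4 residual degrees of freedom at 250 nM (10 arrays) and 2 for both doses in 2 lines (6 arrays). The pairing comes from the labelled cell lines. Deviations from the group means had r from 0.898 to 0.931 within lines and at most -0.135 between lines. With group means subtracted, high values within lines make those between lines negative on average, so their sign adds nothing on the pairing. The scripts were tested on simulated data. The number of arrays limits the precision. The difference between 250 nM and DMSO in the log2 of the 3'/5' signal ratio was -0.01 (SD 0.07, n = 5) for GAPDH and -0.02 (SD 0.08, n = 5) for ACTB.

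Every member could be named. Signals on every array were given for DDX10, DDX21, the 5 other nucleolar and 5 other members with the smallest p, and 3 others that rose most and passed, of which there was 1. Of other lists up to 3 genes with the largest changes that passed were named. The members and lists were chosen with earlier results of these data known. Alternatives changed the pseudocount, filter, scaling, floor, probe set rule, variance trend, block, nucleolar list and lines. Promoter windows came from RefSeq (GRCh38.p14).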

Additional observations from a re-analysis of the deposited data

Results flagged for a closer look

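A line stood apart from the other 4 in 11 of 102 sets of 5 values checked for members (Dixon's test, which chance meets in about 1 set in 20). In SkMel-19 the signal was high for DDX21 with DMSO (4443, next 2711), for DDX3X with DMSO (5133) and at 250 nM (4424), and for DDX52 at 250 nM (417.5). In SkMel-1 it was low at 250 nM for DDX1 (2229) and DHX29 (470.4), and in Malme3M it was high at 250 nM for DDX23 (1108.5). In log2 fold changes at 250 nM, SkMel-28 stood apart for DDX11 (0.71) and DDX51 (0.27), and SkMel-1 for DDX24 (-0.34) and DHX9 (-0.52).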

How the results depend on the processing

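DDX21, DDX56 and DHX15 passed at 250 nM in 13 of 14 alternatives, DDX10 in 12 of 14, DDX31 in 11 of 13, DHX30 in 9 of 14, DDX3X in 8 of 14 and DHX40 in 6 of 14. With no replicate block (cell line left out), 0 members fell and 0 rose at 250 nM (0 nucleolar, 0 other), 12 of all genes fell and 1 rose, and 0 members fell in either 2-line comparison. The count of members that rose was also 0 with median centring and with no trend. Leaving out a line gave 5 to 7 members that fell and 0 that rose, 3 to 4 nucleolar and 1 to 3 other members that fell (1 without SkMel-28, SkMel-19 or Malme3M), and 638 (without SkMel-19) to 985 of all genes that rose. The nucleolar median ranged from -0.17 (without SkMel-28) to -0.25, and the other median from -0.03 to -0.08. With the filter at the 60th percentile the nucleolar median was -0.15 at 250 nM (as reported, -0.25) and -0.17 at 1000 nM (as reported, -0.29). The median of the other members at 250 nM (as reported, -0.05) was 0.00 (0.0041) with no filter and 0.00 (0.0012) with the mean over probe sets.

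At 1000 nM, 1 member (DDX21, not DHX15) fell with no filter, with raised low signals and with no trend. At 250 nM in the same 2 lines the counts were 1, 0 and 1. The median of the other members at 1000 nM (as reported, -0.11) was -0.056 with no filter, -0.14 with median centring, -0.10 with raised low signals and -0.032 with the mean over probe sets. At 250 nM in 2 lines the nucleolar median (as reported, -0.20) was -0.18 with a pseudocount of 50, -0.25 with median centring and -0.27 with the mean over probe sets. In single lines (leave-one-out) the nucleolar median was -0.15 in Malme3M and -0.26 in SkMel-19 at 1000 nM, -0.23 and -0.24 at 250 nM, and 0.00 (-0.0049) and -0.10 between doses, and that of the others -0.085 and -0.072 at 1000 nM and -0.071 and -0.021 between doses. Counts without a line were not run there, since 3 arrays leave no residual degrees of freedom.

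Reversals were of members that did not pass. Leaving out a line gave DDX17 from -0.012 (without SkMel-1) to its highest value of 0.072, DDX23 from -0.040 to 0.059 (without SkMel-5; 0.010 without SkMel-19), DDX24 from -0.084 to 0.0087 (without SkMel-1), DDX41 from -0.020 (without SkMel-1) to 0.049, DHX16 from -0.018 (without SkMel-28) to 0.126 and DHX57 from -0.079 (without SkMel-5) to 0.083. DDX28 (as reported, -0.19) was 0.047 with the mean over probe sets, of which 2 were below the filter, and DDX41 was -0.023 with median centring. DHX57 was -0.015 with a pseudocount of 50, -0.029 with median centring, -0.049 with quantile normalization and -0.063 with raised low signals. The cause was not tested.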
